A study of Mus musculus with 26 samples.

Results

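The 65 genes described here were counted in each of 13 left ventricles of the hypertensive mouse strain BPH/2J at a level above that of each of 12 left ventricles of the normotensive strain BPN/3J, and they came from a table of 40413 genes. They were chosen on CPM, a gene's count as a part of each 1000000 counts of its library. The lowest BPH/2J library had to lie above the highest BPN/3J library, and the BPH/2J median had to reach 1 CPM and at least 4 times the BPN/3J median, with both treatments pooled. These thresholds were met by 119 genes. Of these, 37 had predicted gene symbols (Gm), 6 had RIKEN clone symbols, 4 were named as pseudogenes, 1 was a ribosomal protein gene and 6 were left out by name (Edn3, Eno1b, Gzma, Lgr6, Mfap4 and Mmp3). With the strains exchanged, 43 genes met the same rule. The strain difference of the 65 genes is therefore what selected them, and it is described below without a test.

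The samples were left ventricles of adult mice, of strain BPN/3J or BPH/2J, that were given vehicle or Cmpd17b, a small-molecule agonist of formyl peptide receptors. Cmpd17b was dosed intraperitoneally at 50 mg/kg/day for 28 days. There were 7 BPN/3J vehicle, 5 BPN/3J Cmpd17b, 7 BPH/2J vehicle and 7 BPH/2J Cmpd17b libraries, each taken as a separate mouse from the animal identifiers in the sample titles, so the spread between libraries is that between mice. BPH/2J and BPN/3J mice are inbred strains that were bred for high and normal blood pressure, so blood pressure and all other inherited differences between the strains cannot be told apart. Replicate 7 of the BPH/2J Cmpd17b group was left out by the selection rule: its summed level of 6 ventricular cardiomyocyte markers was 39.3 CPM, against 40098 to 54897 CPM in the other 25 libraries, and its kidney tubule marker sum was 33526 CPM. That library, called kidney-like below, is described apart from the rest, which leaves 13 BPH/2J and 12 BPN/3J libraries.

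Totals ran from 25476100 to 48648200 counts per library. Mitochondrial genes took 26.2% to 38.7% of the counts in 25 of them. The labels place 20 libraries in batch 1 and 6 in batch 2, without saying what a batch is, and all 5 BPN/3J Cmpd17b libraries are in batch 1. A count of 3, used as the floor below which a level is not read, was worth between 0.0713 and 0.111 CPM.

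Inbred strains carry fixed differences in DNA sequence, and such differences can set whether a gene is transcribed, whether its transcript is stable, or how many copies of it are present. They can also set how well reads of a strain align to the reference genome, which comes from another strain. Genes of clustered, recently duplicated families, such as Gbp, Klra, Klk1b and KRAB zinc finger genes, are well known to differ in number and sequence between mouse strains.

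Summed over the 65 genes, BPH/2J libraries held 792 to 886 CPM with a median of 832 CPM. The sum in BPN/3J libraries was 97.2 to 133 CPM with a median of 107 CPM. The median ratio of BPH/2J to BPN/3J median was 9.83, with BPN/3J medians under 3 counts raised to that floor. The ratio was over 50 in 6 genes, over 10 in 32 and between 4 and 5 in 20. In 37 genes the lowest BPH/2J library was more than 2 times the highest BPN/3J library, and in 5 genes it was less than 1.2 times. Only 4 genes (Gabra3, Klk1b26, Klra9 and Tmc5) had 3 counts or fewer in all 12 BPN/3J libraries. Over all 15543 genes kept by the filter on low counts, 2.67 percent had every BPH/2J library above every BPN/3J library, and 1.48 percent had the reverse. Levels were modest: 22 genes had a BPH/2J median of 10 CPM or more, and 19 had one between 1 and 2 CPM.

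**Figure D1:**
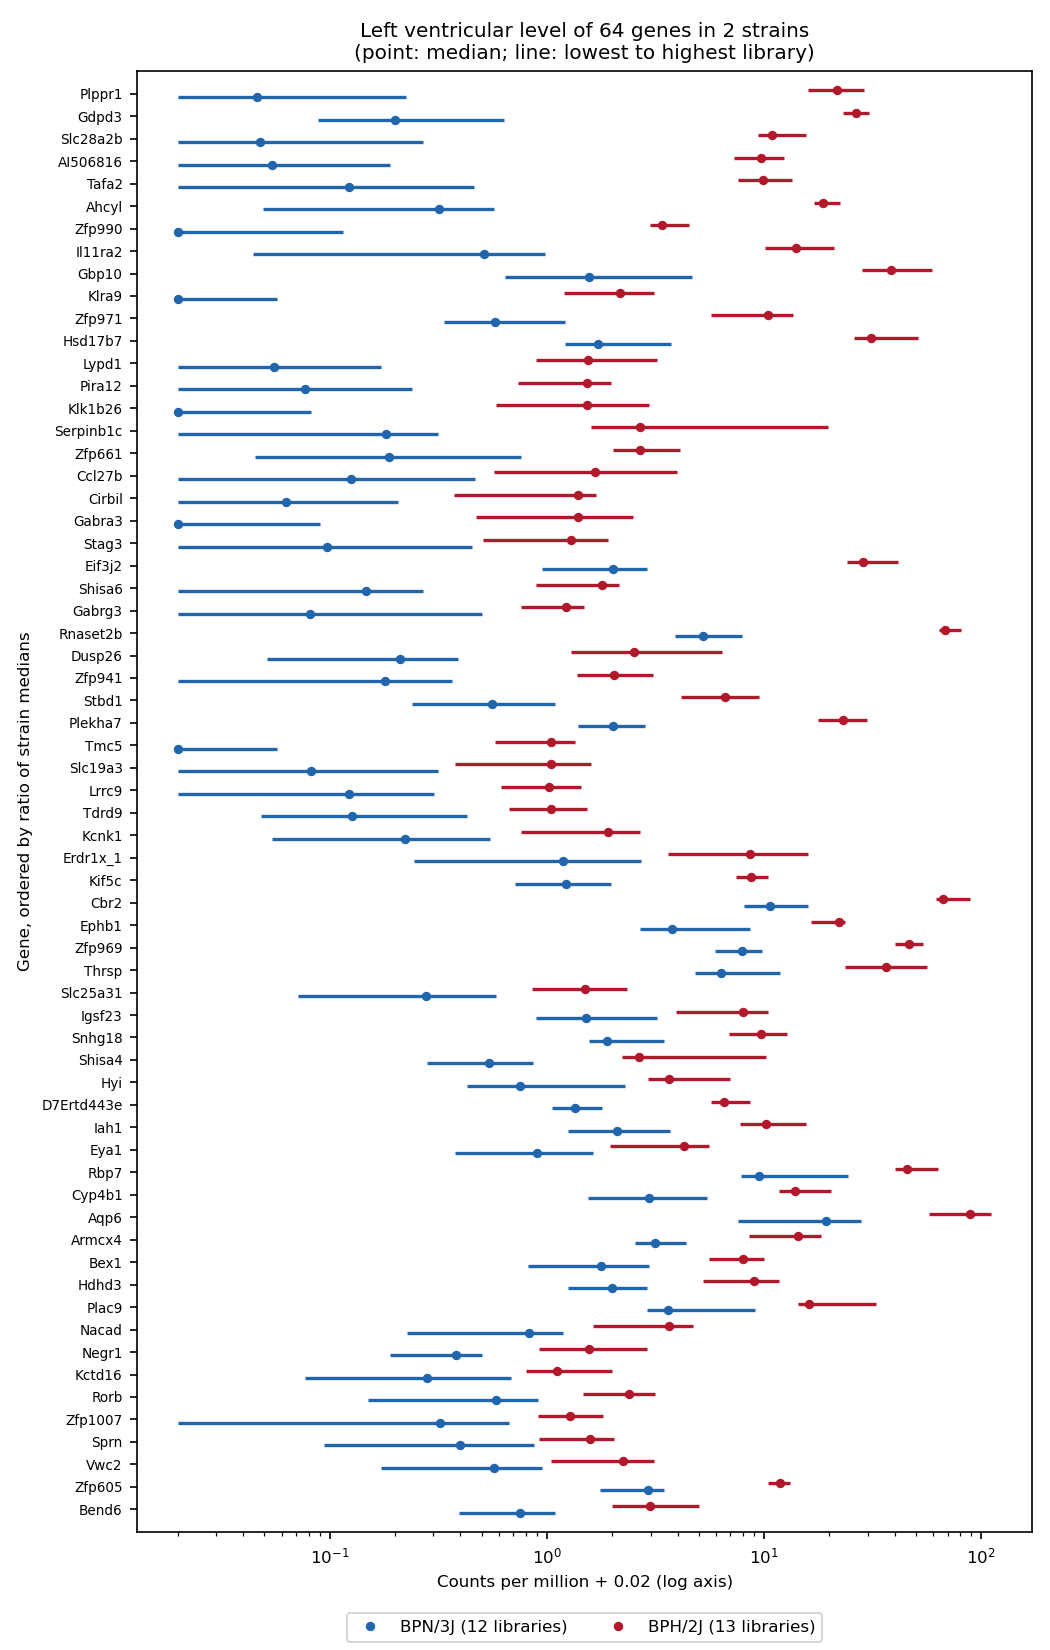
Level of 64 of the 65 genes (y axis, ordered by the ratio of strain medians) in CPM plus 0.02 on a log axis, with the median as a point and a line from the lowest to the highest library, for 13 BPH/2J (red) and 12 BPN/3J (blue) libraries. The red and blue lines overlap for no gene, because that was the rule, and the ratio of medians falls from Plppr1 at the top to Bend6 at the bottom, an order that the gaps between the lines do not follow.

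Promoter windows of the 5 genes with the largest ratios are shown, because their levels in BPN/3J were at or near the floor, together with the window of Il11ra2, whose near-identical copy is compared with it below. Each window holds 250 bases before and 50 bases after the gene's start in RefSeq on the build GRCm38.p6, read 5′ to 3′ on the gene's strand. Capitals mark CG dinucleotides. The sequences are those of the reference mouse, not of BPH/2J or BPN/3J.
Plppr1 (chr4:49059212-49059511, plus strand): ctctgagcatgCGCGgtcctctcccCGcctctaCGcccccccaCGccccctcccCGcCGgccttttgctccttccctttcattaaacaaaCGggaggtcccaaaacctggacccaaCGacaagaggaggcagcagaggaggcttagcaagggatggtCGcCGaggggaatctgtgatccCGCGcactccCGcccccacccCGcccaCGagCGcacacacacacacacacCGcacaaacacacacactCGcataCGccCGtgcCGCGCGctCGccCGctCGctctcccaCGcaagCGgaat
Gdpd3 (chr7:126766164-126766463, plus strand): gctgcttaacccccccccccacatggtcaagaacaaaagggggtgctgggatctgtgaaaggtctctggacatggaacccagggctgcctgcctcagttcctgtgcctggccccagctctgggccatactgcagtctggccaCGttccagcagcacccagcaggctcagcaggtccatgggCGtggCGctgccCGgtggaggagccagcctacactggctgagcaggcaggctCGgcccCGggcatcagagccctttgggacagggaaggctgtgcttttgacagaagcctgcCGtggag
Slc28a2b (chr2:122484691-122484990, plus strand): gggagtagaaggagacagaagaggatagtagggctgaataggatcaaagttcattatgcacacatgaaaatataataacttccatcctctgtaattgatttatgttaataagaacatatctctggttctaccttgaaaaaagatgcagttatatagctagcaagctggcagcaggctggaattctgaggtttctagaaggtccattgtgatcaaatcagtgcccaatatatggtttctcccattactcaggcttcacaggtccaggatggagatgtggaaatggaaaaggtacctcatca
AI506816 (chr5:23712618-23712917, minus strand): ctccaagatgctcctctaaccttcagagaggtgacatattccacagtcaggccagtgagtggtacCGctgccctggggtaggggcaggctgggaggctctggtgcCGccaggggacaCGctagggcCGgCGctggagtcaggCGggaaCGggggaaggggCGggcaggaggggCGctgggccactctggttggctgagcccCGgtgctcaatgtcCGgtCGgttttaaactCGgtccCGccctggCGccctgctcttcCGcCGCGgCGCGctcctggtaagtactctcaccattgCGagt
Tafa2 (chr10:123263826-123264125, plus strand): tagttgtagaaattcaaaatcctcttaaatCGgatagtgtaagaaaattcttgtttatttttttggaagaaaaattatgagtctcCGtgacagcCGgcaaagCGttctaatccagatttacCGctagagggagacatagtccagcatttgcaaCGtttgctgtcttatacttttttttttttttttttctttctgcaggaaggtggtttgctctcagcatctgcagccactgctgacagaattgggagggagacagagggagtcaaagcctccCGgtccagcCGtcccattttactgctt
Il11ra2 (chr4:42665714-42666013, minus strand): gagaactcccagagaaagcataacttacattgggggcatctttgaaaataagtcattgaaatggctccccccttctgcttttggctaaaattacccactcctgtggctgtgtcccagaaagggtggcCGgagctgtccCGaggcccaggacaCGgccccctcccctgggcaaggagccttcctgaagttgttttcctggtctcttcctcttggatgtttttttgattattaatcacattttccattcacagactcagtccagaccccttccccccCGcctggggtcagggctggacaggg

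The windows differed widely in CG content. The Plppr1 window held 29 CG dinucleotides, 0.99 times the number its base composition predicts (the CpG observed over expected ratio). The AI506816 window held 21, with a ratio of 0.64. The Tafa2 window held 8 in a sequence with 41.7% G and C, with a ratio of 0.62. The other windows were poor in CG: Gdpd3 had 7 with a ratio of 0.23, Il11ra2 had 4 with a ratio of 0.19, and Slc28a2b had 0. The genes with the largest ratios thus had windows from CG-rich to CG-free.

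RefSeq windows matched 47 of the 65 genes and gave 58 windows. Their median CpG observed over expected ratio was 0.45, against 0.71 over 15019 windows of all genes tested. A ratio over 0.6 was found in 22 of 58 windows (37.9%), against 62.3% over all genes tested and 67.5% over genes with a BPH/2J median of at least 1 CPM. In 27 of the 47 genes no window had a ratio over 0.6. Median G and C content was 55.7%, against 60.0% over all genes tested. CG-rich promoters are typical of broadly expressed genes, and CG-poor ones of genes restricted to few tissues.

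Short sequence motifs were searched on both strands of the same windows. The TATA box letters TATAAA were present in 7 windows (12.1%), against 7.89% over all genes tested. The letters CCAAT were present in 25 (43.1%) against 36.9%, and the GC box letters GGGCGG in 25 (43.1%) against 58.0%. The E-box letters CACGTG were present in 9 windows (15.5%) against 9.36%, and CAGCTG in 12 (20.7%) against 16.1%. These are matches of letters in the reference sequence, and their differences from the background were not tested.

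The largest ratio was that of Plppr1, a neuronal membrane protein of the phospholipid phosphatase-related family. Its level was 16.0, 21.6 and 28.8 CPM (lowest, median and highest) in BPH/2J and 0, 0.026 and 0.205 CPM in BPN/3J, a ratio of 242 to the floor. The vehicle and Cmpd17b libraries of BPH/2J overlapped, with medians of 20.4 and 22.7 CPM. A predicted gene that overlaps it, Gm32657, had nearly the same levels, with medians of 24.3 CPM in BPH/2J, against 0.036 CPM in BPN/3J. The sources used here do not say whether counting used strand, and reads of such overlapping genes cannot be told apart. Other genes of the family did not share the pattern: Plppr2 was lower in BPH/2J by 0.55 ± 0.15 (log2, SE; adjusted p = 0.00704, edgeR) and Plppr3 was higher by 0.78 ± 0.28 (adjusted p = 0.0378, edgeR).

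Gdpd3 followed, an enzyme with lysophospholipase D activity. It was counted at 23.2, 26.5 and 30.6 CPM in BPH/2J and at 0.068, 0.180 and 0.614 CPM in BPN/3J, a ratio of 147. Its spread within BPH/2J was narrow, and the highest BPN/3J library stayed far under the lowest BPH/2J library. The 3 other Gdpd genes tested were all lower in BPH/2J: Gdpd1 by 0.25 ± 0.08, Gdpd2 by 2.38 ± 0.44 and Gdpd5 by 0.20 ± 0.06 on the log2 scale (SE; adjusted p = 0.0278, 0.000108 and 0.0201, edgeR).

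Slc28a2b belongs to the concentrative nucleoside transporters. Its level was 9.32, 10.9 and 15.6 CPM in BPH/2J and 0, 0.028 and 0.249 CPM in BPN/3J, a ratio of 122 to the floor. Slc28a2 itself moved the other way, with medians of 31.0 CPM in BPH/2J, against 44.6 CPM in BPN/3J, lower by 0.74 ± 0.13 (log2, SE; adjusted p = 4.72e-05, edgeR). The sum of the pair was not tested.

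AI506816, a long noncoding RNA, had 7.26, 9.69 and 12.3 CPM in BPH/2J and 0, 0.034 and 0.170 CPM in BPN/3J, a ratio of 109 to the floor. A similar transcript, Gm42427 (91.1% identical over the aligned part), was also higher in BPH/2J, with medians of 47.1 and 11.5 CPM. Another, 2700038G22Rik (95.4% identical over 347 bases), had a lower median in BPH/2J, 2.31 CPM against 3.37 CPM in BPN/3J, with overlapping ranges. Tafa2, a secreted chemokine-like protein known from the nervous system, had 7.56, 9.84 and 13.4 CPM in BPH/2J and 0, 0.103 and 0.443 CPM in BPN/3J, a ratio of 95.8. Of 2 other Tafa genes tested, Tafa3 did not pass between strains. Tafa5 was higher in BPH/2J by 0.77 ± 0.08 (log2, SE, with adjusted p = 1.17e-08, edgeR), with medians of 7.90 and 4.71 CPM. Ahcyl, whose symbol was not in the RefSeq table used here, had 16.9, 18.7 and 22.3 CPM in BPH/2J and 0.029, 0.298 and 0.551 CPM in BPN/3J, a ratio of 62.9. AI506816, Tafa2 and Ahcyl had no overlap between strains and little spread within BPH/2J.

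The ratios next in order lay between 18.7 and 37.9. Zfp990, a KRAB zinc finger gene, had 2.97, 3.38 and 4.49 CPM in BPH/2J and 0, 0 and 0.095 CPM in BPN/3J. Klra9, a Ly49 receptor of natural killer cells, had 1.18, 2.16 and 3.08 CPM in BPH/2J and 0, 0 and 0.037 CPM in BPN/3J. For Zfp990 and Klra9 most BPN/3J libraries had no count at all. Il11ra2, Gbp10 and Zfp971 also had ratios in this range and are described with their copies and neighbours below.

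**Figure D2:**
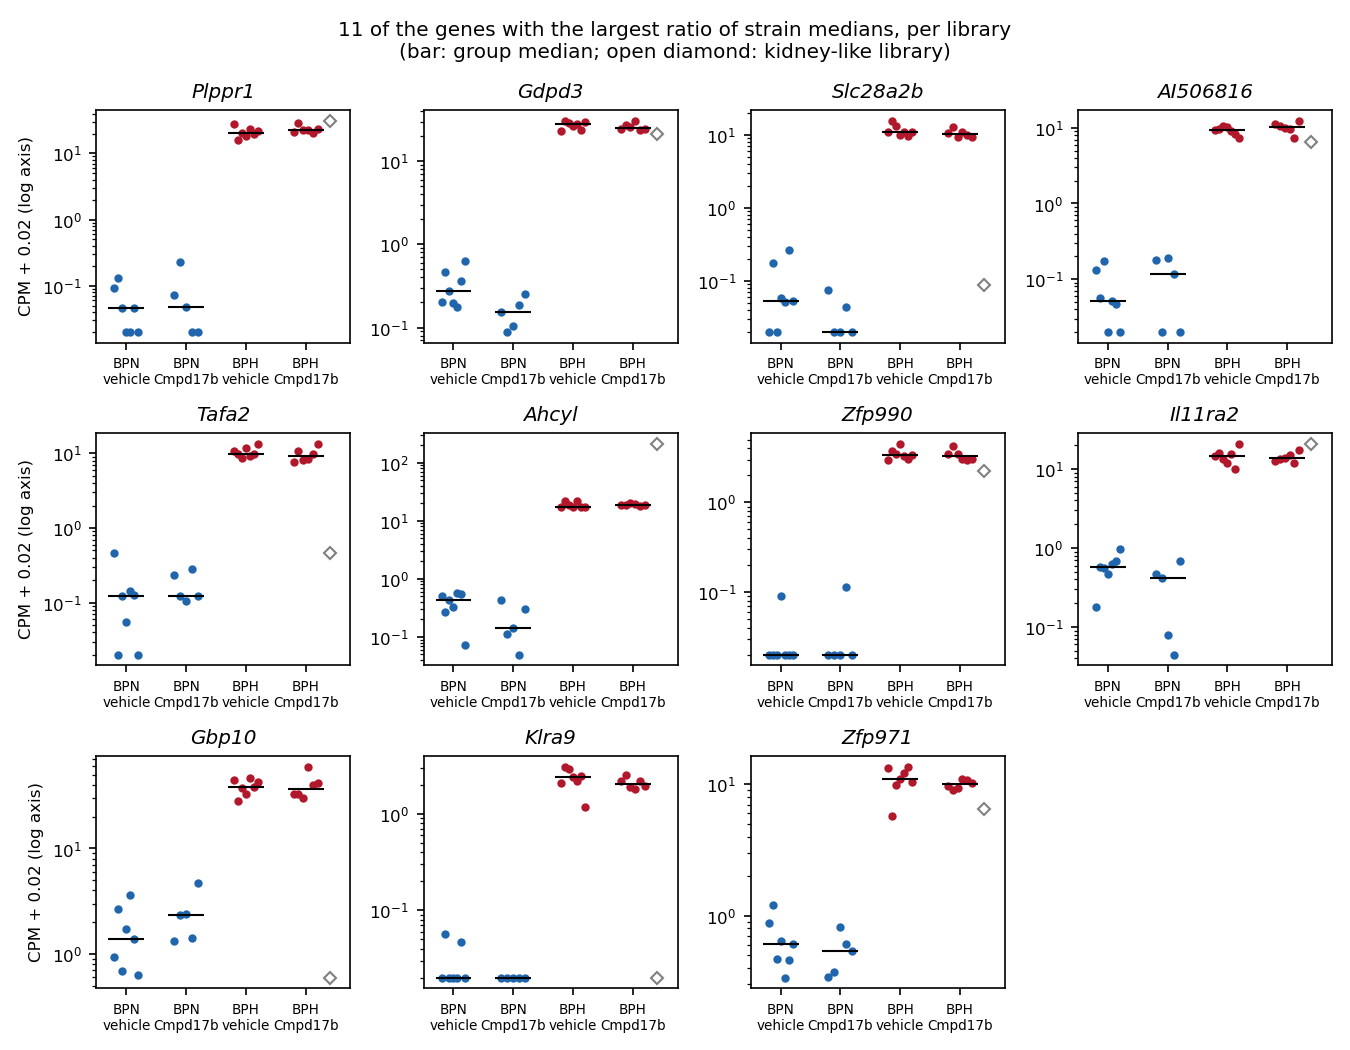
Level per library, as CPM plus 0.02 on a log axis, of 11 of the 12 genes with the largest ratio of strain medians, in BPN/3J (blue) and BPH/2J (red) libraries by treatment, with the group median as a bar and the kidney-like library as an open diamond. Within each strain the vehicle and Cmpd17b points overlap for every gene shown, and the kidney-like library sits near or above the BPH/2J points for some genes and among or below the BPN/3J points for others.

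Genes of metabolism and transport are taken first. The roles given here and below are background, were assigned after the values were seen, and were not tested as themes. Per kilobase of the longest transcript, among the 57 genes with a transcript length, the order of BPH/2J medians began with Rbp7, a retinoid-binding protein of endothelial cells and adipocytes, at 73.7 CPM per kb, followed by the carbonyl reductase Cbr2 at 60.2, the water channel family member Aqp6 at 43.0, Zfp969 at 32.0 and the ribonuclease Rnaset2b at 27.9. Thrsp, a regulator of lipogenesis also called Spot 14, followed at 26.1 CPM per kb. The libraries of neighbours in this order were not tested against each other.

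In CPM, Aqp6 had 57.4, 88.6 and 111 in BPH/2J and 7.53, 19.2 and 27.9 in BPN/3J. Cbr2 had 61.6, 66.8 and 88.6 CPM in BPH/2J and 8.09, 10.7 and 15.9 CPM in BPN/3J. Rbp7 had 40.1, 45.7 and 63.2 CPM in BPH/2J and 7.80, 9.48 and 24.4 CPM in BPN/3J. The 24.4 CPM came from vehicle replicate 7 alone, whose endothelial marker sum was 2512 CPM, against at most 1086 CPM in the other BPN/3J libraries, and the next library had 15.6 CPM. The part of the markers in that value was not tested. All 3 genes were thus plainly counted in BPN/3J too. Thrsp had 23.6, 36.5 and 56.2 CPM in BPH/2J and 4.81, 6.32 and 11.8 CPM in BPN/3J. Hsd17b7, an enzyme of cholesterol synthesis that also reduces estrone, had 25.9, 31.0 and 51.0 CPM in BPH/2J and 1.197, 1.70 and 3.70 CPM in BPN/3J. Its ratio of 18.2 was the largest among genes over 30 CPM apart from Gbp10. The other genes of this kind were Cyp4b1 (a cytochrome P450; BPH/2J median 13.9 CPM), Iah1 (an esterase; 10.2 CPM), Hdhd3 (8.94 CPM), Stbd1 (a glycogen-binding protein; 6.56 CPM), Hyi (3.63 CPM), Slc25a31 (a mitochondrial ADP/ATP carrier of germ cells; 1.48 CPM) and Slc19a3 (a thiamine transporter; 1.03 CPM), with BPN/3J medians of 0.062 to 2.93 CPM.

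Relatives of these enzymes and channels mostly did not rise with them. Of 5 other aquaporins tested, 3 were lower and 1 higher in BPH/2J: Aqp1 was lower by 0.67 ± 0.12 and Aqp11 higher by 1.29 ± 0.29 (log2, SE; adjusted p = 5.44e-05 and 0.00121, edgeR). Of 6 other Hsd17b genes 1 was higher and 1 lower, and of 3 other Cbr genes 2 were lower. Of 9 other Cyp4 genes 2 were lower, and of 2 other Rbp genes 1 was lower. Over all genes tested, 26.9 percent passed between the strains at an adjusted p under 0.05, with 13.6 percent higher and 13.3 percent lower in BPH/2J.

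Genes best known from neurons and from ion channels formed another sizeable group. They included the potassium channel Kcnk1, the GABA-A receptor subunits Gabra3 and Gabrg3, the GABA-B receptor partner Kctd16, the AMPA receptor regulator Shisa6 and its relative Shisa4, and the channel-like Tmc5. Gabra3 had 0.452, 1.37 and 2.48 CPM in BPH/2J and 0, 0 and 0.070 CPM in BPN/3J. Gabrg3 had 0.738, 1.203 and 1.47 CPM in BPH/2J and 0, 0.061 and 0.481 CPM in BPN/3J. Both subunits were thus low even in BPH/2J. Kcnk1 (BPH/2J median 1.90 CPM), Kctd16 (1.09 CPM), Shisa6 (1.77 CPM), Shisa4 (2.64 CPM) and Tmc5 (1.03 CPM) had BPN/3J medians of 0 to 0.522 CPM.

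Related genes were read beside these. Gabrr2, another GABA-A subunit gene, was lower in BPH/2J by 0.91 ± 0.20 (log2, SE; adjusted p = 0.000744, edgeR). Of 5 other Kcnk genes, Kcnk2 and Kcnk3 were higher, by 0.44 ± 0.16 and 0.25 ± 0.08 (log2, SE; adjusted p = 0.0460 and 0.0250, edgeR). None of the 3 other Shisa genes passed.

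Surface, adhesion and axonal proteins included Ephb1, a receptor tyrosine kinase for ephrin-B, at 16.5, 22.1 and 23.6 CPM in BPH/2J and 2.68, 3.74 and 8.63 CPM in BPN/3J. Kif5c, a neuronal kinesin heavy chain, had 7.44, 8.65 and 10.4 CPM in BPH/2J and 0.694, 1.203 and 1.96 CPM in BPN/3J. Neither Kif5a nor Kif5b passed between strains, nor did any of the 4 other Ephb genes. Bex1 (7.99 CPM), Armcx4 (14.2 CPM), Negr1 (1.55 CPM), the nicotinic receptor modulator Lypd1 (1.52 CPM), the prion-like Sprn (1.56 CPM) and the secreted BMP antagonist Vwc2 (2.23 CPM), given as BPH/2J medians, had BPN/3J medians of 0.036 to 3.12 CPM. The only other Bex gene tested, Bex3, was higher in BPH/2J by 0.48 ± 0.14 (log2, SE, with adjusted p = 0.0103, edgeR).

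Schwann cell and neural markers moved with these genes. Cdh19, Gfra3, S100b and Sox10 were higher in BPH/2J by 0.79, 0.78, 0.80 and 1.09 on the log2 scale (adjusted p = 1.24e-05, 0.00187, 0.0101 and 0.000343, edgeR). Sox10 had 0.664, 1.39 and 2.46 CPM in BPH/2J and 0.274, 0.625 and 1.36 CPM in BPN/3J, so the strains overlapped. Of 4 listed atrial markers, the 2 tested (Nppa and Myl4) were also higher. The sums of the list were 343 to 3099 CPM in BPH/2J and 70.0 to 861 CPM in BPN/3J. They were mostly Nppa, with medians of 569 CPM in BPH/2J, against 232 CPM in BPN/3J. The other listed markers, Myl7 and Sln, did not pass the filter on low counts. Their medians were 0.102 and 0.098 CPM in BPH/2J and 0.052 and 0.030 CPM in BPN/3J. The 3099 CPM came from Cmpd17b replicate 6 alone, and the next BPH/2J library had 1165 CPM. The sums overlapped between strains, and the part of these markers in the strain difference was not tested. In bulk tissue, fewer cells of a type and less RNA per cell cannot be told apart. Of the smooth muscle and pericyte markers 2 were higher and 1 lower, 2 ventricular cardiomyocyte markers were lower, and 1 macrophage marker was higher. No fibroblast, endothelial or B cell marker passed between strains.

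Zinc finger genes were the most numerous family, with 7 of the 65. Zfp969 had 40.0, 46.7 and 53.9 CPM in BPH/2J and 5.95, 7.92 and 9.75 CPM in BPN/3J. Zfp971 had 5.71, 10.4 and 13.6 CPM in BPH/2J and 0.317, 0.554 and 1.19 CPM in BPN/3J. Zfp605 had 10.4, 11.8 and 13.1 CPM in BPH/2J and 1.74, 2.92 and 3.43 CPM in BPN/3J, the smallest spread within BPH/2J of all 65 genes. Zfp661, Zfp941, Zfp990 and Zfp1007 had BPH/2J medians of 1.26 to 3.38 CPM and BPN/3J medians of 0 to 0.303 CPM. Of the 335 other Zfp genes tested, 54 were higher and 26 lower in BPH/2J, or 23.9%, beside 26.9 percent over all genes.

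The other regulators were Eya1, a phosphatase and transcriptional coactivator of organ development (BPH/2J median 4.28 CPM, BPN/3J 0.881 CPM), the nuclear receptor Rorb (2.36 and 0.564 CPM), the BEN-domain protein Bend6 (2.96 and 0.734 CPM) and the phosphatase Dusp26 (2.49 and 0.190 CPM). Bend6 overlaps Dst, which was much more highly counted and alike between strains, with medians of 253 and 267 CPM. Dusp26 varied widely between BPH/2J libraries and is taken up with the batches below.

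Among immune genes, Gbp10, an interferon-inducible guanylate-binding protein, had 28.3, 38.4 and 59.6 CPM in BPH/2J and 0.620, 1.55 and 4.65 CPM in BPN/3J. Of the 9 other Gbp genes tested, 5 were lower in BPH/2J and 1 higher. Gbp2, Gbp3, Gbp4, Gbp5 and Gbp7 were lower by 0.41 to 0.97 on the log2 scale, and Gbp6 was higher by 0.61 ± 0.12 (SE; adjusted p = 0.000404, edgeR). Pira12 (a paired immunoglobulin-like receptor), Ccl27b (a chemokine), Igsf23 and Serpinb1c (an elastase inhibitor) had BPH/2J medians of 1.51, 1.64, 7.996 and 2.66 CPM. Their BPN/3J medians were 0.057, 0.105, 1.496 and 0.162 CPM.

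The remaining genes were 2 of the germ line, Stag3 (meiotic cohesin) and Tdrd9 (a piRNA pathway helicase), and a mixed set. Stag3 and Tdrd9 had BPH/2J medians of 1.27 and 1.02 CPM and BPN/3J medians of 0.077 and 0.107 CPM. Plekha7, an adherens junction protein at a locus associated with blood pressure in people, had 17.6, 23.2 and 29.8 CPM in BPH/2J and 1.37, 2.00 and 2.80 CPM in BPN/3J. Plac9 (16.2 CPM), the long noncoding RNA Snhg18 (9.71 CPM), Erdr1x_1 (8.56 CPM), D7Ertd443e (6.49 CPM), Nacad (3.61 CPM), Klk1b26 (a kallikrein; 1.51 CPM), Cirbil (1.38 CPM) and Lrrc9 (1.01 CPM), as BPH/2J medians, had BPN/3J medians of 0 to 3.61 CPM. The translation factor gene Eif3j2 is described next.

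Near-identical copies were counted beside some of the genes. Of 57 genes with a transcript in the GENCODE M21 annotation, 14 had another transcript at least 85% identical over at least 300 bases and 50% of their length. Il11ra2, a copy of the interleukin-11 receptor gene Il11ra1 (99.0% identical), had 10.03, 13.96 and 20.9 CPM in BPH/2J and 0.024, 0.491 and 0.965 CPM in BPN/3J. Il11ra1 had medians of 45.5 CPM in BPH/2J, against 57.6 CPM in BPN/3J. The sum of the pair was 52.0, 59.1 and 71.0 CPM in BPH/2J and 50.0, 58.2 and 72.4 CPM in BPN/3J, so the summed level overlapped fully between strains.

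Eif3j2 and Eif3j1, subunits of the translation initiation factor eIF3 that are 99.4% identical here, gave similar values. Eif3j2 had 24.2, 28.6 and 41.2 CPM in BPH/2J and 0.929, 2.00 and 2.86 CPM in BPN/3J, and the medians of Eif3j1 were 36.3 and 69.1 CPM. The sum had medians of 65.1 CPM in BPH/2J, against 71.3 CPM in BPN/3J, with overlapping ranges. Ccl27b with Ccl27a (99.3% identical) summed to medians of 5.93 CPM in BPH/2J, against 6.69 CPM in BPN/3J, also overlapping. In these 3 pairs the copy that was not selected had a lower median in BPH/2J.

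For the pairs of Rnaset2b and Gbp10 the median of the sum was higher in BPH/2J. Rnaset2b had 63.6, 68.3 and 80.6 CPM in BPH/2J and 3.86, 5.20 and 7.89 CPM in BPN/3J, while Rnaset2a (99.1% identical) had medians of 82.3 and 111 CPM. Their sum was 140 to 174 CPM in BPH/2J and 84.9 to 149 CPM in BPN/3J, which overlapped, with medians of 150 and 117 CPM. Gbp10 with Gbp6 (99.2% identical) summed to 82.5, 101 and 157 CPM in BPH/2J and 22.6, 42.1 and 57.2 CPM in BPN/3J, with no overlap. The sources used here do not say how reads that fit both copies were counted, and the values of the single copies are uncertain.

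**Figure D3:**
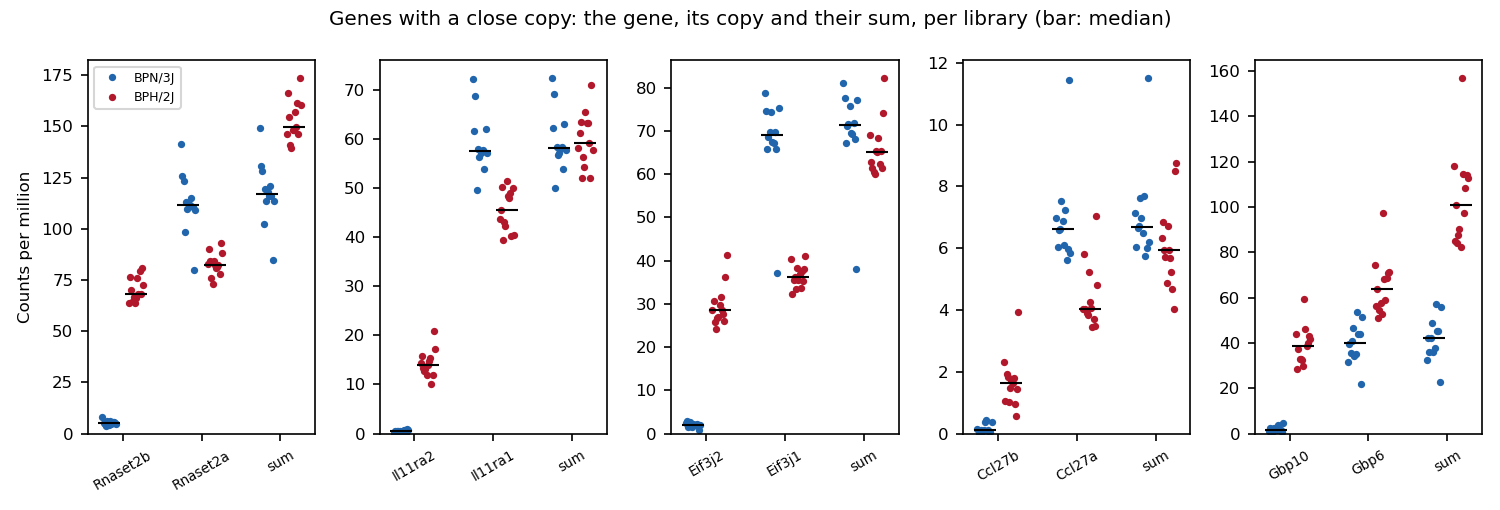
Level in CPM (linear axis from 0) of 5 of the genes, their near-identical copies and the sum of the pair, in each of 12 BPN/3J (blue) and 13 BPH/2J (red) libraries, with the median as a bar. The sums of the Il11ra, Eif3j and Ccl27 pairs overlap between strains, and the sum of Gbp10 and Gbp6 does not.

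The copies of other genes were mostly not counted. Zfp966, Zfp967 and Zfp968, whose transcripts matched Zfp969 at 100% over the aligned part, had medians of 0 to 0.029 CPM in both strains, and the closest copies of Klra9, Klk1b26, Zfp990 and Bex1 had medians of 0 to 0.062 CPM. Serpinb1a, 87.9% identical to Serpinb1c, had medians of 2.71 CPM in BPH/2J, against 2.19 CPM in BPN/3J.

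Positions were available for 59 of the 65 genes on the RefSeq assembly GRCm38.p6, an earlier build than the one named for the alignment, so beyond the promoter windows only chromosomes and distances are given from it. Of these genes 56 were protein coding and 2 were long noncoding. Chromosome 7 held 10 (16.9%), against 7.55% of other genes with a BPH/2J median of at least 1 CPM, and chromosome 4 held 8 (13.6%), against 6.19%. Chromosomes 14, 16 and Y held none. Only 4 genes lay within 1 Mb of another of the 65: Ccl27b overlaps Il11ra2, and Sprn lies 653 kb from Zfp941. That is 6.78%, beside 7.32% of other genes with a BPH/2J median of at least 1 CPM that lay as close to one of the 65. Genes left out by their symbols do not enter this count. Of these, Gm32657 overlaps Plppr1 and Gm14326 lies 65.9 kb from Zfp971.

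Genes next to the 65 often differed between strains as well. Of 116 nearest tested neighbours on either side, 58 (50.0%) passed between strains at an adjusted p under 0.05 (edgeR), 40 higher and 18 lower in BPH/2J, against 26.5% of the other genes with a position. A difference of more than 2-fold was found in 19.8% of neighbours and 5.65% of other genes. Without the neighbours that overlap one of the 65, 50 of 105 (47.6%) passed. With all 26 libraries 38 (32.8%) passed, against 15.6% of other genes. Genes that met the thresholds but were left out by their symbols could count as neighbours. Gm32657, Gm34765 and Gm14326 did so, and their strain difference is fixed by the rule. The share without such genes was not counted.

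The share of genes that passed was highest close to the 65 genes and did not fall evenly with distance. It was 72.7% among 11 overlapping genes, and the 8 that passed were all higher in BPH/2J. These include Gm32657 and Gm34765, which met the thresholds and were left out by their symbols. Such genes enter the shares at all distances. The share was 51.1% of 94 genes within 50 kb. It was 38.8% between 50 and 100 kb, 38.1% between 100 and 250 kb and 35.3% between 250 and 500 kb. From 500 to 1000 kb it was 30.9%, and from 1000 to 2000 kb 35.3%. Beyond 10000 kb, or on a chromosome with none of the 65, it was 23.9% of 9343 genes.

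**Figure D4:**
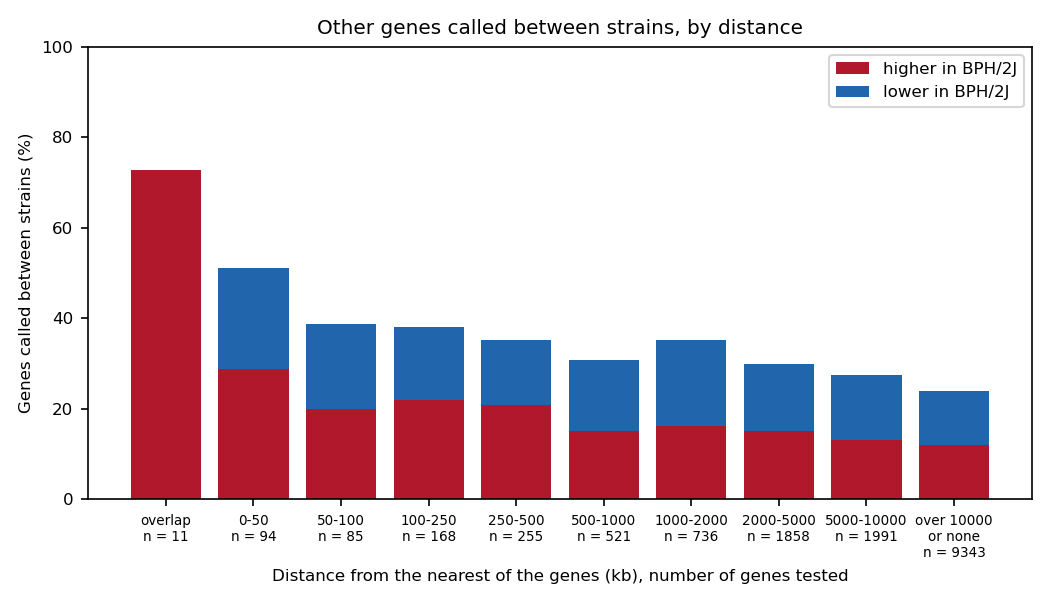
Percent of other tested genes that passed between strains (adjusted p under 0.05, edgeR), by distance in kb from the nearest of the 65 genes on GRCm38.p6, split into higher (red) and lower (blue) in BPH/2J, with the number of genes tested under each bar. The share falls from 72.7% for overlapping genes and 51.1% within 50 kb to 23.9% for genes more than 10000 kb away or with none of the 65 on their chromosome. Genes that met the thresholds and were left out by their symbols are counted among the other genes.

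Several of these neighbours had large differences of their own. Alad, the second enzyme of heme synthesis, lies next to Hdhd3 and had 126, 154 and 172 CPM in BPH/2J and 33.7, 39.0 and 55.9 CPM in BPN/3J, with no overlap, and its ratio of 3.96 fell just short of the threshold. Hdhd3 itself had 5.20, 8.94 and 11.7 CPM in BPH/2J and 1.23, 1.98 and 2.88 CPM in BPN/3J. Tagap1, next to Rnaset2b, had 14.4, 16.5 and 17.8 CPM in BPH/2J and 3.68, 4.48 and 5.54 CPM in BPN/3J. These neighbours thus moved the same way as the gene beside them. Rnf122 beside Dusp26 had medians of 10.7 and 5.40 CPM. Gm14326 beside Zfp971 had medians of 16.9 and 1.41 CPM, but it met the thresholds itself and was left out by its symbol. The chemokine gene Ccl21a lies 107 kb from Il11ra2 and 117 kb from Ccl27b. It had 14.1, 40.2 and 52.3 CPM in BPH/2J and 9.42, 13.5 and 54.2 CPM in BPN/3J, so the strains overlapped.

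Other neighbours moved the opposite way. Kctd14, next to Thrsp, had 0, 0.062 and 0.318 CPM in BPH/2J and 0.547, 0.833 and 1.59 CPM in BPN/3J. Znf41-ps, on the side of Zfp990, had medians of 0.955 CPM in BPH/2J, against 5.53 CPM in BPN/3J, and Msc, on the side of Eya1, had 1.23 and 3.03 CPM. In these places neighbouring genes were thus high in different strains.

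The kidney-like library, which the selection did not use, held some of the genes at high levels. It was above every BPN/3J library for 39 of the 65 genes and above every BPH/2J left ventricle for 15. How many of all genes did so in this library was not counted, so nothing is read from these numbers. Cyp4b1 had 3128 CPM there, against 11.7, 13.9 and 20.2 CPM in the other BPH/2J libraries. Ahcyl had 211 CPM and Iah1 124 CPM. Of the genes with the largest ratios, Plppr1 had 31.1 CPM there and Gdpd3 20.998 CPM, whereas Slc28a2b had 0.068 CPM and Tafa2 0.442 CPM. The library had no count for Cirbil, Igsf23, Klk1b26, Klra9 and Vwc2, among others. It is 1 library of BPH/2J with no BPN/3J counterpart, so no strain comparison can be made in it.

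The selection did not compare Cmpd17b with vehicle, since treatments were pooled. It did require the strains to lie apart in libraries of both treatments, so genes that Cmpd17b moved far could be left out. The counts below are thus not free of the selection. In BPH/2J none of the 65 genes passed an adjusted p under 0.05 with edgeR (0 percent of all 15543 genes passed), DESeq2 or limma voom, and none had an unadjusted p under 0.05 with edgeR, against 287 (1.85%) of all genes. The median log2 difference, Cmpd17b minus vehicle, was -0.02 over the 65 genes and 0.00 over all genes. It ranged from -0.42 (Vwc2) to 0.54 (Serpinb1c).

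The genes with the smallest p were Shisa4, Serpinb1c, Vwc2, Plppr1 and Bex1. Shisa4 had 2.19, 2.55 and 4.42 CPM with vehicle and 2.20, 2.81 and 10.2 CPM with Cmpd17b, which overlap (log2 difference 0.36 ± 0.20, SE; adjusted p = 1, edgeR). Serpinb1c had 1.58, 2.77 and 5.63 CPM with vehicle and 1.72, 2.49 and 19.8 CPM with Cmpd17b (0.54 ± 0.32; adjusted p = 1, edgeR). The high value of both came from the same Cmpd17b library, replicate 6. Vwc2 had 1.73, 2.47 and 3.08 CPM with vehicle and 1.03, 1.93 and 2.23 CPM with Cmpd17b (-0.42 ± 0.26; adjusted p = 1, edgeR). Plppr1 and Bex1 differed by 0.20 ± 0.15 and -0.24 ± 0.19 (log2, SE; adjusted p = 1 for both, edgeR).

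The precision of these differences varied with the level of the gene. The 95% interval lay within 0.5 of 0 on the log2 scale for 25 of the 65 genes and within 1 for 60. For Gdpd3 it ran from -0.29 to 0.20, for Cbr2 from -0.23 to 0.20 and for Rnaset2b from -0.24 to 0.21. For Cirbil, counted at a median of 1.38 CPM, its lower end was -1.13, so the interval includes a fall of 2-fold.

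**Figure D5:**
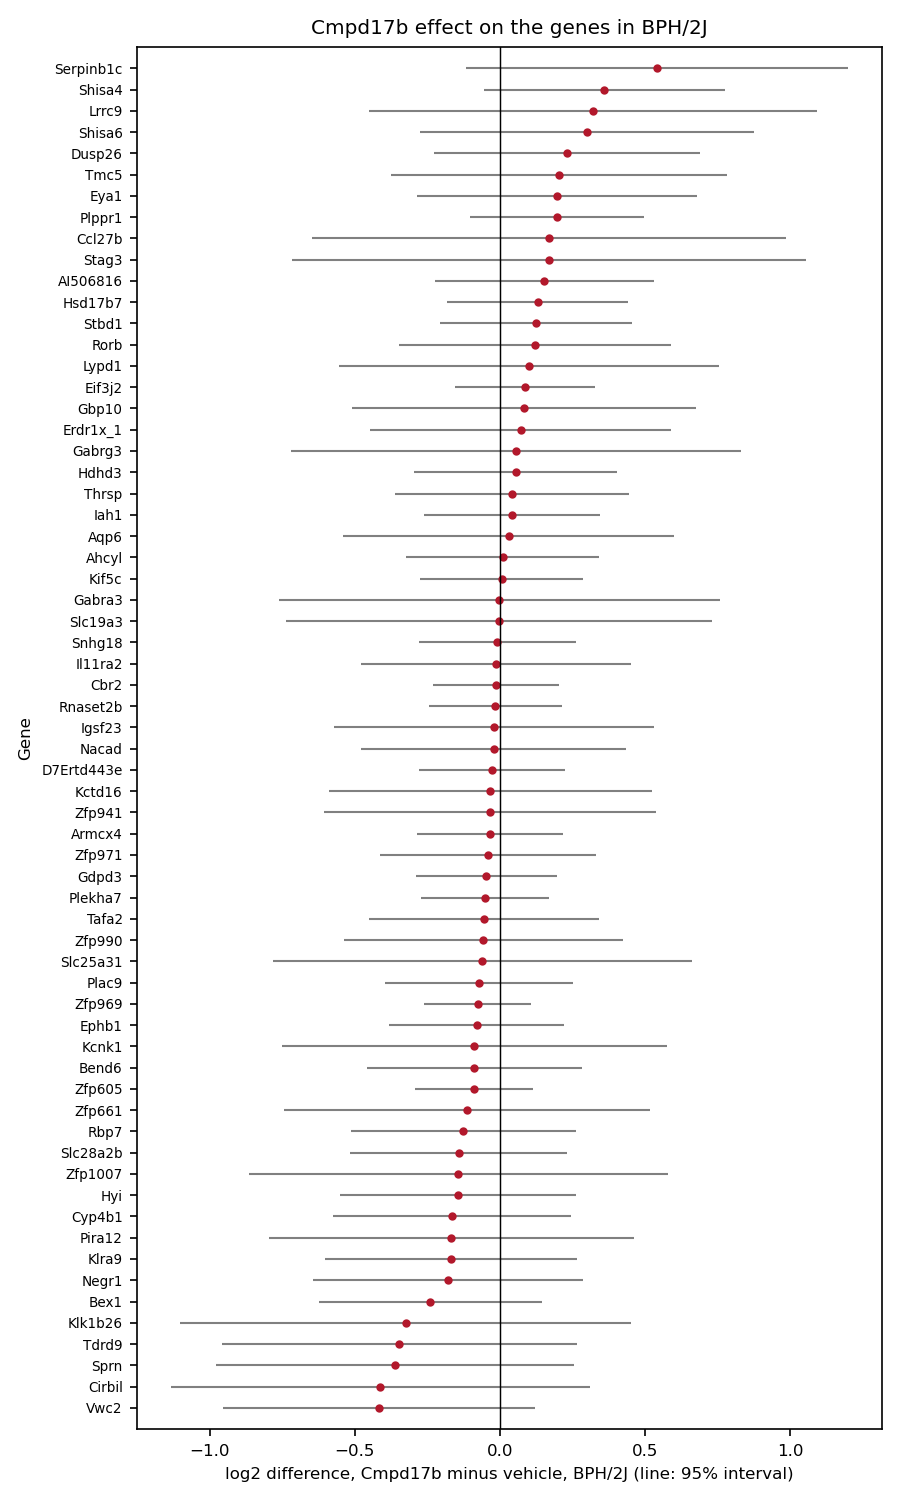
Log2 difference between Cmpd17b and vehicle in BPH/2J (points, edgeR with a batch term, 25 libraries) and its 95% interval (lines) for 64 of the 65 genes. Every interval shown holds 0, and estimates run from -0.42 (Vwc2) to 0.54 (Serpinb1c).

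In BPN/3J, where the genes were low, none of the 65 passed either (0 percent of all genes with edgeR), and DESeq2 and limma voom also called none of them. An unadjusted p under 0.05 (edgeR) was found for 14 (21.5%), against 1506 (9.69%) of all genes. The 65 genes were chosen for low levels in BPN/3J and many rest there on a few counts, so nothing is read from the 14. Gdpd3 had 0.156, 0.255 and 0.614 CPM with vehicle, and in the Cmpd17b libraries 1 to 5 it had 0.133, 0.068, 0.085, 0.166 and 0.232 CPM. These groups overlap, and the log2 difference was -1.10 ± 0.34 (SE; adjusted p = 0.514, edgeR). The log2 differences of Hyi, Erdr1x_1, Cyp4b1 and Dusp26 were -0.85, -1.13, -0.70 and 1.00 ( adjusted p = 0.514 for each, edgeR). Both batch 2 libraries of BPN/3J received vehicle.

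The effect of Cmpd17b was also compared between strains. None of the 65 genes passed this test of the difference with edgeR (0 percent of all genes), DESeq2 or limma voom. An unadjusted p under 0.05 (edgeR) was found for 7 (10.8%), against 595 (3.83%) of all genes. The difference rests in part on the low BPN/3J counts that chose the genes, so nothing is read from the 7 either.

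The 65 genes also varied between the mice of BPH/2J. The coefficient of variation over the 13 libraries had a median of 22.6%. It was smallest for Zfp605 (6.57%), Rnaset2b (8.33%) and Zfp969 (8.69%), and largest for Serpinb1c (110%), Shisa4 (62.0%) and Ccl27b (50.0%). Cmpd17b replicate 6, of batch 2, was the highest BPH/2J library in 15 genes and the lowest in 10. That library also had the highest sums of atrial (3099 CPM) and fibroblast (1541 CPM) markers of the BPH/2J libraries. It had the highest sums of macrophage (209 CPM) and skeletal muscle (3727 CPM) markers among them too, and the lowest mitochondrial share (26.2%). Their part in these values was not tested.

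Between batches, 9 of the 65 genes passed with edgeR (13.8%), 7 higher and 2 lower in batch 2, beside 21.4 percent of all genes (11.5 percent higher and 9.89 percent lower), so the share was under the background. Serpinb1c was higher by 1.41 ± 0.31, with 1.58, 2.42 and 4.57 CPM in the batch 1 libraries of BPH/2J and 5.46, 5.63 and 19.8 CPM in the 3 of batch 2 (adjusted p = 0.00221, edgeR). Kcnk1 was lower by 1.36 ± 0.38, with 1.28, 1.97 and 2.67 CPM in batch 1 and 0.74, 0.79 and 0.93 CPM in batch 2 (adjusted p = 0.0106, edgeR). Dusp26, Shisa4, Hyi, Erdr1x_1, Stbd1 and Plac9 were higher in batch 2 by 0.45 to 0.88, and Zfp605 was lower by 0.39 (log2). The batches of BPH/2J overlapped for Erdr1x_1 and Zfp605 and did not overlap for the other genes that passed. Overlap was not counted over all genes.

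Some of these batch differences missed the threshold when 1 library was left out, which in batch 2 leaves few. Without Cmpd17b replicate 6 of BPH/2J, the difference was 0.73 for Serpinb1c (adjusted p = 0.165, edgeR), 0.25 for Shisa4 (adjusted p = 0.406), 0.69 for Dusp26 (adjusted p = 0.0901) and 0.44 for Plac9 (adjusted p = 0.0718). Without vehicle replicate 7 of BPH/2J it was 0.29 for Plac9 (adjusted p = 0.190, edgeR), 0.58 for Hyi (adjusted p = 0.0565) and 0.59 for Erdr1x_1 (adjusted p = 0.138). Erdr1x_1 missed the threshold without any 1 of 10 libraries.

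Just inside the fold threshold lay Bend6 and Zfp605 at 4.03 times, Vwc2 at 4.04, Sprn at 4.13 and Zfp1007 at 4.14. Just outside lay Magi2 at 3.98 times, Alad at 3.96, Prkcq at 3.91, Ankrd1 at 3.85 and Tuft1 at 3.80. Ankrd1, a cardiac stress-response gene, had medians of 1419 CPM in BPH/2J, against 369 CPM in BPN/3J. Just inside the level threshold lay Lrrc9 at 1.01 CPM, Tdrd9 at 1.02, Slc19a3 and Tmc5 at 1.03 and Kctd16 at 1.09, and just outside lay Zfp429 at 0.989, Lrrc38 at 0.936, Baiap3 at 0.915, Piwil2 at 0.909 and Pak5 at 0.752 CPM.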

How the data were processed

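Polyadenylated RNA of 26 left ventricles was sequenced as paired reads on a NovaSeq6000, per the labels' protocols. The submitters' processing notes name Trim Galore 0.6.7, STAR 2.7.9a and the build GRCm39. Of the counting program, its annotation and its use of strand, the sources used here say nothing. The authors deposited expected counts per gene, of which 93.3% were whole; they were rounded for the models, and CPM used each column's sum. Totals of 25476100 to 48648200 counts set the precision: 3 counts were worth 0.0713 to 0.111 CPM. Of 73 pairs of libraries within a group, 0 were identical.

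The 65 genes, the gene lists and the tests were chosen with earlier results of these data known. Groups came from the labels, with replicates numbered in sample order. One model of all 4 groups with a batch term was fitted to 25 libraries, with the kidney-like library left out (edgeR 4.0.16, TMM, filterByExpr, robust quasi-likelihood F-test, R 4.3.3). It kept 15543 genes, and p-values were adjusted over all of them by the Benjamini-Hochberg method, with a threshold of 0.05. DESeq2 1.42.0 and limma 3.58.1 (voom with quality weights) were alternatives, and the edgeR script was tested on simulated data. Strain values of the 65 genes, their neighbours, copies and promoters are descriptions.

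Close copies were found among GENCODE M21 transcripts with blastn 2.17.0, in place of the protein comparison that had been planned, because no protein table was used here. Neighbours, and promoter windows of 300 bases, came from RefSeq on GRCm38.p6. Genes named singly were those with the 12 largest ratios or 12 highest BPH/2J medians, those within 1 Mb of another, the 5 smallest p for Cmpd17b in each strain, the 3 smallest and 3 largest coefficients of variation, the 5 on either side of each threshold, and their copies and neighbours; other genes of the 65 are given in groups of shared role, and Kif5c, Gabra3 and Gabrg3 were chosen for fuller values after these were seen. Other settings, and the batches and libraries left out in turn, are reported in the closing section. The distance profile, the count of neighbours without overlaps and the counts over gene families were chosen after seeing the data. Values of some genes, including 1 of the 65 and some markers, are not reported here; counts over the 65 include it.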

Additional observations from a re-analysis of the deposited data

Results flagged for a closer look

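For the 5 genes with the smallest p for Cmpd17b in BPH/2J, 20 groups were examined. In 4 of them the highest or lowest library stood far from the rest. The 5 genes were picked on values of the same libraries, so no chance rate is set beside these 4 groups. Of these, 3 came from replicate 6 of the BPH/2J Cmpd17b group, in batch 2: Shisa4 was highest of 6 there at 10.2 CPM, Serpinb1c was highest of 6 at 19.8 CPM, and Vwc2 was lowest of 6 at 1.03 CPM. Serpinb1a, the close copy of Serpinb1c, reached 18.1 CPM in its highest BPH/2J library, against a median of 2.71 CPM. The other was Plppr1 in BPN/3J, where Cmpd17b replicate 2 was the highest of 5 at 0.205 CPM, still far under the lowest BPH/2J library at 16.0 CPM.

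The kidney-like library entered no main comparison. It was above every BPN/3J library for 39 of the 65 genes, and 26 were within or under the BPN/3J range. The same was not counted over all genes.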

How the results depend on the processing

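The number of genes that met the rule depended on its thresholds and libraries. It was 139 with a fold of 2, 35 with a fold of 8, 39 with all 26 libraries (38 of them among the 65) and 100 in batch 2 alone (50 among the 65), where each strain had few libraries. It was 59 with TMM-scaled CPM, 63 with vehicle libraries alone, 74 with Cmpd17b libraries alone, 70 in batch 1 alone, and 60 to 67 when each library was left out in turn. The count of genes within 1 Mb of another was 4, and 2 within both 0.25 and 0.5 Mb. Of the 116 neighbours, 58 passed between strains, 52 in batch 1 alone and 38 with all 26 libraries, for which the cause was not tested. The counts of the 65 genes called for Cmpd17b in BPH/2J, in BPN/3J and for the difference stayed at 0 under each setting run, from 0 to 0 when libraries were left out. The batch count of 9 was 6 to 13 under the other settings and 6 to 11 when libraries were left out. The batch difference of Kcnk1 was 0.22 with all 26 libraries, the reverse of -1.36, with a value of 16.5 CPM in the added library. The median log2 difference for Cmpd17b was -0.05 to 0.00 in BPH/2J and -0.14 to -0.04 in BPN/3J when libraries were left out, and the strain median was 2.92 to 3.04. No paired analysis was possible because the labels give no replicate numbers that groups share. Depth limits the reading of genes in BPN/3J, where many medians lay under 3 counts.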
